A study of Mus musculus with 13 samples.

Results

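Expression of 34 genes of glycolysis and the hypoxia response was measured in mouse embryonic stem cells (ESCs) in which the histone demethylases of the JMJD2 (KDM4) family were deleted. The genes were taken by name from a fixed list, which was chosen with earlier results of these data known. The list holds 23 glucose transporters, glycolytic enzymes and genes of lactate and pyruvate fate, here called the enzymes, and 11 other genes of the hypoxia response. All 34 were found on the array, all 34 passed the filter on dim probes, and they stand among 22919 genes and unnamed probes that were tested. The probes of 31 genes were well above background on all 13 arrays, against 11 arrays for Car9 and 12 each for Adm and P4ha1. Pkm2 is given under its current symbol Pkm and Ero1l as Ero1a.

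The ESC lines were derived from C57Bl/6 mice and carried Cre fused to a tamoxifen-responsive estrogen receptor at the Rosa26 locus (Rosa26::CreERT2). In 3 lines Jmjd2a and Jmjd2c were floxed (2ac: cl4, cl5 and cl6), and in 3 others Jmjd2a, Jmjd2b and Jmjd2c (2abc: cl280.4, cl324.9 and cl324.13). Each line was grown without OHT (4-hydroxytamoxifen, which activates the recombinase) or with OHT at 500 nM over 12 days. Cells were collected after a further 6 days, which gave 4 groups of 3 samples. All groups grew on gelatin in N2B27, a medium free of serum, to which LIF, a GSK3 inhibitor and the MEK inhibitor PD0325901 (2i) were added, and all carry the recombinase. The study asked what loss of these demethylases does to gene expression in ESCs. A line without the recombinase or without floxed alleles given OHT is not among the samples, so loss of the genes and exposure to OHT with active Cre cannot be told apart. The design text calls the lines independently established. Whether the similar names of cl324.9 and cl324.13 mark a closer kinship is not stated. The p-values of an OHT effect measure how the change within a line varies over these lines. Those of the comparison of untreated genotypes rest on the spread of levels within the 4 groups. The OHT samples are part of that spread, so it is not that of the untreated lines alone.

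The targeted genes followed the labels. Kdm4c (Jmjd2c) was at 13.4% of control after OHT in 2ac and at 10.8% in 2abc. Kdm4b (Jmjd2b) was at 21.4% in 2abc, and its change in 2ac was 0.12 on the log2 scale. Kdm4a (Jmjd2a) was at 59.8% and 62.8%. Where the probes lie relative to the deleted exons was not determined. Between 50.1% and 63.9% of probes were well above background on each array, and none was saturated. The number of arrays limits the precision. All 13 ESC markers checked were above background on every array of each group, with a summed level (linear signal divided by the 75th percentile of its array) of 929 to 1070 in 2ac controls and 875 to 972 after OHT. In 2abc the sum was 920 to 968 in controls and 840 to 871 after OHT, without overlap. The fibroblast markers Postn and Dcn and the blood markers Hbb-bt and Alas2 were above background on no array. The 2 blood markers above background on all arrays, Cd3e and Itgam, summed to 9.74 to 11.0 in 2ac controls and 8.70 to 9.80 after OHT, and to 10.0 to 11.2 and 6.67 to 8.23 in 2abc. The summed level of 6 neural markers was higher after OHT, at 11.9 to 13.4 against 6.85 to 7.96 in 2ac and at 9.9 to 11.2 against 5.39 to 7.39 in 2abc. All 6 were above background on every array with OHT. The summed fibroblast markers (5 of 10 above background on all arrays of each group) went from 125 to 141 in 2ac controls to 107 to 128 after OHT, with overlap, and from 124 to 137 to 138 to 167 in 2abc, without overlap. The part of these marker shifts in the results was not tested. In bulk RNA, fewer cells of a type and less RNA per cell cannot be told apart.

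Glycolysis breaks glucose down to pyruvate in the cytosol, after which pyruvate is either oxidised in mitochondria or reduced to lactate and exported. ESCs in culture rely on it heavily. Under low oxygen the prolyl hydroxylases of the EGLN family no longer mark the HIF alpha subunits for VHL-dependent destruction, and HIF then binds hypoxia response elements with the core ACGTG or GCGTG and activates genes for glucose uptake, glycolysis, pH control and blood vessel growth. Several genes of the JMJD2 family are themselves known HIF targets, and the enzymes they encode use oxygen.

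The promoters of 6 genes with different roles and directions of change are shown, because the core letters of the hypoxia response element occur in most promoters of the set. Each sequence holds the 250 bases before the first RefSeq transcript start (GRCm38.p6), 5′ to 3′ on the strand of the gene. Capitals mark ACGTG or GCGTG on either strand, so that CACGT and CACGC are matches on the opposite strand. A match that runs past the start is not shown.
Pfkfb3, chr2:11553930-11554179, minus strand: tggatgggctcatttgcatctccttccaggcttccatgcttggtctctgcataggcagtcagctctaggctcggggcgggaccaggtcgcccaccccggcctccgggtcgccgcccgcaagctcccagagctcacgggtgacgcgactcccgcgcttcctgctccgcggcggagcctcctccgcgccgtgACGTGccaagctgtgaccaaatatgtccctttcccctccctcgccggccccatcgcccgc
Pdk1, chr2:71872974-71873223, plus strand: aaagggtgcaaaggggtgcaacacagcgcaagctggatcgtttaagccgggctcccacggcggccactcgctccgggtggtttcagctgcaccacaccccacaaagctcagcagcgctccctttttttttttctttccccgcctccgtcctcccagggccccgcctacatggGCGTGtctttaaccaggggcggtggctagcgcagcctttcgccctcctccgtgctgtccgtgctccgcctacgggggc
Adm, chr7:110627407-110627656, plus strand: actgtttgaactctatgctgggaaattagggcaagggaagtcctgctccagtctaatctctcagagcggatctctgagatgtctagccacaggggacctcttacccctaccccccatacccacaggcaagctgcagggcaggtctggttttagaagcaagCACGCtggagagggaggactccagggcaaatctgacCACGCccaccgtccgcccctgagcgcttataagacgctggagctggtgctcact
Hk2, chr6:82774455-82774704, minus strand: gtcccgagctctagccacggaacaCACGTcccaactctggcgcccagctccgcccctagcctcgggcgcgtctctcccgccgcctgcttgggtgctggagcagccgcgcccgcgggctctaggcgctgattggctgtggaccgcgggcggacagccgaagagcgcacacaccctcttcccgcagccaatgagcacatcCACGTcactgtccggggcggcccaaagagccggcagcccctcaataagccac
Egln1, chr8:124949255-124949504, minus strand: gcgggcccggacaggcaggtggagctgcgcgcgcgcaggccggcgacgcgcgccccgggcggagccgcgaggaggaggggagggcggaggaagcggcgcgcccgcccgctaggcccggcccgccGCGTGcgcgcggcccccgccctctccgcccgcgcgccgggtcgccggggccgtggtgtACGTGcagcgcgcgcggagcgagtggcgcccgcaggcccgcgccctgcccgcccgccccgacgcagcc
Car9, chr4:43506776-43507025, plus strand: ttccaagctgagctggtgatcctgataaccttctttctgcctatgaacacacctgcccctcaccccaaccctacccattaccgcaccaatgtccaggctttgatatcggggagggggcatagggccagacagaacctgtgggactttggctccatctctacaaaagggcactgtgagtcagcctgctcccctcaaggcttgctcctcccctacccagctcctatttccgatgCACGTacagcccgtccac

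The Car9 promoter holds CACGT 18 bases before the start, and that of Hk2 holds it at 226 and 52 bases before the start. The promoter of Egln1 holds GCGTG at 126 and ACGTG at 68 bases before the start, and that of Adm holds CACGC at 90 and 54. The shown promoter of Pdk1 holds GCGTG at 78 bases before the start. In Pfkfb3 the first of 2 starts has ACGTG at 60 bases. RefSeq windows of 300 bases (250 before to 50 after the start) were matched for 32 of the 34 genes, all but Slc2a3 and Ndrg1, and gave 46 windows. ACGTG on either strand was in 54.3% of these and in 19.6% of all 32851 windows. GCGTG was in 58.7% against 32.4%, and at least 1 of both motifs in 80.4% against 43.8%. Counted by gene over any window, 29 of the 32 held a match, all but Gpi1, Tpi1 and Eno2. No share by gene was taken over all genes. The list was made of named genes of glycolysis and the hypoxia response, so these shares are a description. The palindrome CACGTG, which contains ACGTG on both strands, was in 8.70% against 7.15%. A match is a description of the letters and no evidence of binding. Of the 6 shown, Pfkfb3, Pdk1 and Adm rose after OHT and Hk2, Egln1 and Car9 fell. They were picked with their directions known, so this split is no result.

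After OHT single genes of the pathway moved in opposite directions, and the median change of all 34 over the 6 lines was -0.04 on the log2 scale against 0 for all features. Averaged over the 6 lines, 10 of the 34 genes (29.4%) passed the test at an adjusted p under 0.05, while 28.7% of all features did, so the share is near the background. Pfkm, Pdk1, Pfkfb3, Ndrg1 and Adm rose, and Hk2, Aldoa, Tpi1, Egln1 and Car9 fell, and of all features 14.0% were called higher and 14.7% lower. Each of these 10 moved the same way in all 6 lines. Of all 34, 5 were higher and 5 lower in 6 of 6 lines, or 14.7% each, against 14.4% and 16.1% of all features. In 2ac alone 4 genes (11.8%) passed, Ndrg1 upward and Hk1, Vegfa and Car9 downward, while 12.3% of all features did (5.76% higher and 6.51% lower). In 2abc alone 5 genes (14.7%) passed, Pfkm, Eno2, Pfkfb3 and Adm upward and Egln1 downward, against 17.6% of all features (8.58% higher and 9.03% lower). No gene passed in both genotypes separately, which does not show that the genotypes differ, and 13 genes passed in at least 1 of the 3 comparisons. The calls within a genotype rested on few lines and on the spread shared by both genotypes. In fits on the samples of 1 genotype alone none of them held, with adjusted p between 0.0508 and 0.0735 in 2ac, where Pdk1 passed instead, and between 0.0531 and 0.0895 in 2abc. With no filter on dim probes the 4 calls in 2ac were lost (adjusted p between 0.0522 and 0.0818), and of those in 2abc that of Pfkm held. Median scaling ended the calls of Hk2, Pfkm, Aldoa and Tpi1 over the 6 lines (adjusted p = 0.115, 0.0615, 0.142 and 0.0839), of Vegfa in 2ac (0.0647), and of Pfkm, Pfkfb3 and Egln1 in 2abc (0.0555, 0.0567 and 0.0776). Without cl5 no gene passed in 2ac and without cl4 only Car9 did. In 2abc no gene passed without cl324.9 or without cl324.13, and 3 did without the 2ac line cl5. Of the calls over the 6 lines, 6 genes passed without cl4, cl5 or cl324.9 and 5 without cl324.13. Pfkfb3, Car9, Ndrg1 and Adm passed over the 6 lines under every alternative that could test them, 16 alternatives for Pfkfb3 and Ndrg1 and 14 for the others.

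**Figure D1:**
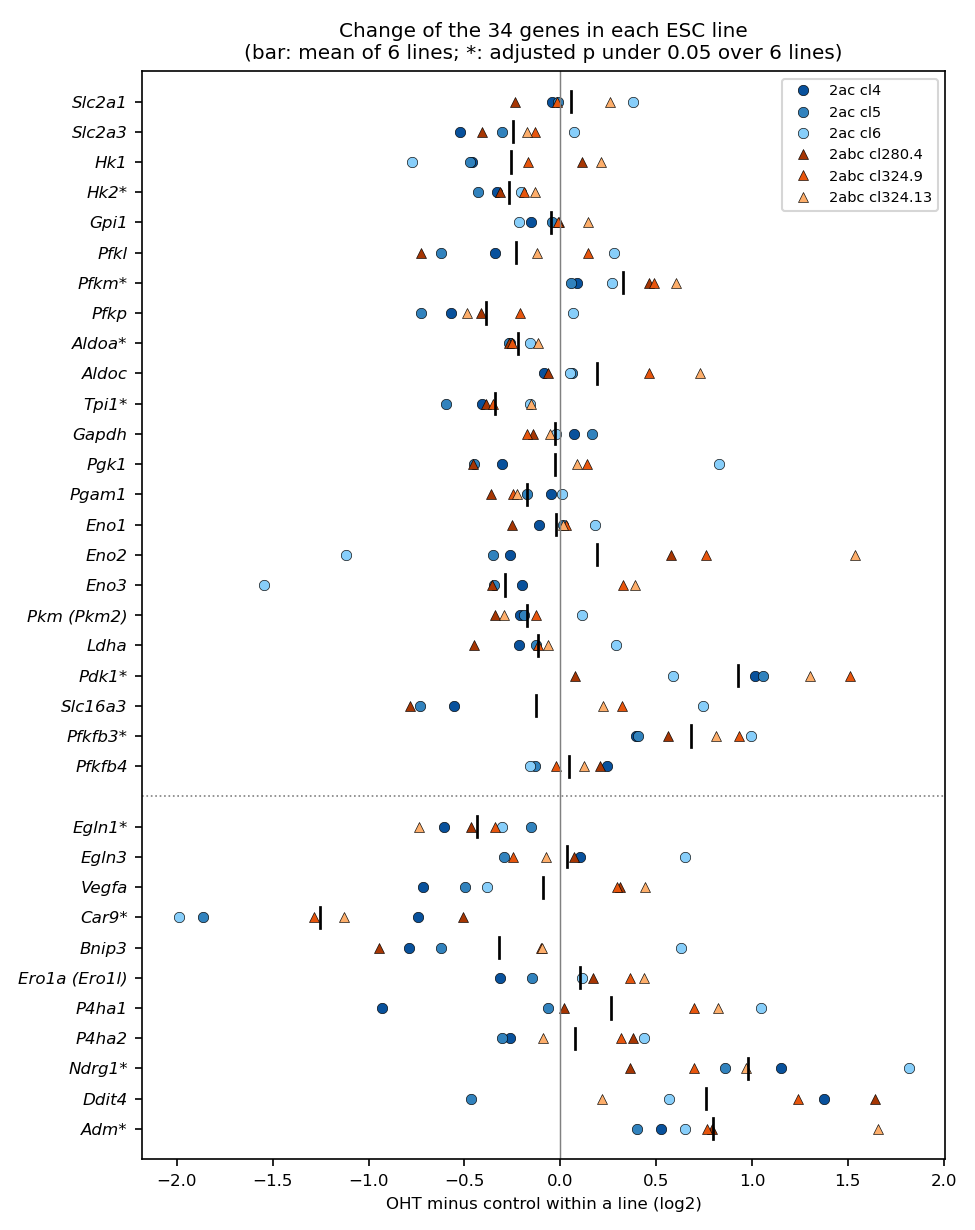
OHT minus control within each ESC line (log2, horizontal axis) for the 34 genes, with circles for 2ac lines, triangles for 2abc lines and a bar at the mean of the 6 lines. The 23 enzymes are above the dotted line and the 11 other hypoxia genes below it. An asterisk marks the 10 genes with an adjusted p under 0.05 over the 6 lines, whose points all lie on 1 side of 0.

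The 23 enzymes had a median change of -0.10 in 2ac and -0.08 in 2abc on the log2 scale, against 0.02 and -0.02 over all features. Over the 6 lines the median was -0.11 against 0, and 3 enzymes rose, 3 fell and 17 did not pass. The share of enzymes called was 26.1%, near the 28.7% of all features. The 11 other hypoxia genes had medians of -0.04 in 2ac and 0.32 in 2abc, and 2 rose, 2 fell and 7 did not pass over the 6 lines (36.4% called). By line the median of the enzymes was lowest in cl280.4 at -0.27, then cl4 at -0.21 and cl5 at -0.19, and was -0.02 in cl324.9, 0.06 in cl6 and 0.09 in cl324.13. The median of the other hypoxia genes was -0.31 in cl4 and -0.29 in cl5 and between 0.17 and 0.57 in the remaining 4 lines. The median of all features lay between -0.09 and 0.08 in every line.

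Among glucose transporters and hexokinases, the entry steps of the pathway, Hk2 fell. Levels are given on 1 scale throughout, log2 of the signal minus log2 of the 75th percentile of that array, and serve only to compare samples for the same probe. Hk2 encodes hexokinase 2, which phosphorylates glucose and is known as the inducible, HIF-responsive hexokinase. Its level was 3.77, 3.87 and 3.60 in the 2ac controls (cl4, cl5, cl6) and 3.44, 3.44 and 3.40 after OHT. In 2abc (cl280.4, cl324.9, cl324.13) it was 3.78, 3.77 and 3.86 in controls and 3.47, 3.58 and 3.72 after OHT. Control and OHT samples did not overlap in either genotype, and Hk2 was lower in 6 of 6 lines. Hk2 fell by 0.27 (SE 0.06) over the 6 lines, to 83.1% of control (adjusted p = 0.0216). Leaving out cl4, cl5, cl324.9 or cl324.13 ended the call, with adjusted p between 0.0629 and 0.0803.

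Hk1, the constitutive hexokinase of most tissues, fell in 2ac. It stood at 5.13, 5.12 and 4.94 in the 2ac controls and at 4.67, 4.65 and 4.16 after OHT. For 2abc the levels were 5.31, 5.30 and 5.09 in controls and 5.42, 5.13 and 5.30 after OHT. The 2ac groups did not overlap, while those of 2abc did. The change was -0.57 (SE 0.11) in 2ac, to 67.5% of control (adjusted p = 0.0304), and 0.05 in 2abc (adjusted p = 0.789). The difference between genotypes was 0.62 (SE 0.16), with an adjusted p of 0.352, so a difference was not established. A second Hk1 probe gave -0.50 in 2ac (adjusted p = 0.14 over all probes). The call in 2ac was lost without cl4, cl5, cl6 or the 2abc line cl324.13, with adjusted p between 0.0544 and 0.122.

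The glucose transporter genes Slc2a1 (GLUT1) and Slc2a3 (GLUT3) did not pass in any comparison. Slc2a1 changed by 0.06 over the 6 lines (adjusted p = 0.705), and Slc2a3 by -0.25 (adjusted p = 0.103). Slc2a3 was lower in 5 of 6 lines, by 0.13 to 0.53, and 0.07 higher in cl6. Gpi1, the glucose phosphate isomerase, changed by -0.05 (adjusted p = 0.572), and its 2 other probes gave -0.01 and -0.05.

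Phosphofructokinase commits the sugar to glycolysis, and the 3 genes for its isoforms had changes of different sign, of which 1 passed. Pfkm, the muscle isoform, stood at 3.20, 2.98 and 3.25 in the 2ac controls and at 3.29, 3.03 and 3.52 after OHT. In 2abc it was at 3.40, 3.16 and 3.26 in controls and at 3.86, 3.65 and 3.86 after OHT. The groups overlapped in 2ac and did not in 2abc. Pfkm rose by 0.52 (SE 0.08) in 2abc, to 143% of control (adjusted p = 0.0145), and by 0.33 (SE 0.06) over the 6 lines (adjusted p = 0.0106). In 2ac its change was 0.14 (adjusted p = 0.328), and the difference between genotypes of 0.38 had an adjusted p of 0.381. The call in 2abc was lost without cl324.9 (adjusted p = 0.0922) or cl324.13 (0.109).

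Pfkp, the platelet isoform, was at 2.71, 2.62 and 2.69 in the 2ac controls and at 2.14, 1.89 and 2.75 after OHT. In 2abc its levels were 2.95, 2.54 and 2.80 in controls and 2.54, 2.34 and 2.32 after OHT. It was lower in 5 of 6 lines, with cl6 the exception, and the groups overlapped in 2ac only. Its change over the 6 lines was -0.39 (SE 0.12), with an adjusted p of 0.0519, and it did not pass. A second Pfkp probe gave 0.03 (adjusted p = 0.841 over all probes), so the probes disagree. Pfkl, the liver isoform, changed by -0.23 (adjusted p = 0.333), with values by line from -0.73 in cl280.4 to 0.28 in cl6.

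Aldoa and Tpi1 were lower after OHT in every line. Aldoa, which splits fructose 1,6-bisphosphate, stood at 9.12, 9.00 and 8.92 in the 2ac controls and at 8.86, 8.74 and 8.76 after OHT. The 2abc controls stood at 9.09, 9.00 and 9.00, and the 2abc samples with OHT at 8.82, 8.74 and 8.88. It fell by 0.22 (SE 0.05) over the 6 lines, to 85.8% of control (adjusted p = 0.0293). Samples with and without OHT did not overlap in either genotype, and the change was small. The call was lost without any of cl4, cl5, cl280.4, cl324.9 or cl324.13, with adjusted p between 0.059 and 0.107, and the authors' deposited table gave -0.14 (adjusted p = 0.0827). Over all alternatives its adjusted p ran from 0.0138 to 0.142. Tpi1, which interconverts the triose phosphates, was at 6.24, 6.22 and 6.09 in the 2ac controls and at 5.83, 5.62 and 5.93 after OHT. In 2abc its levels were 6.33, 6.37 and 6.21 in controls and 5.94, 6.02 and 6.06 after OHT. The groups did not overlap in either genotype. Tpi1 fell by 0.34 (SE 0.08) over the 6 lines, to 78.8% of control (adjusted p = 0.0223), and a second probe gave -0.40 (adjusted p = 0.00952 over all probes). The call of the first probe was lost without cl4, cl5, cl280.4, cl324.9 or cl324.13, with adjusted p between 0.0513 and 0.0799. Aldoc, the brain aldolase, changed by 0.19 (adjusted p = 0.241), with 0.46 in cl324.9 and 0.73 in cl324.13 and values between -0.08 and 0.06 in the remaining 4 lines.

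In the lower part of the pathway no gene for the main enzymes passed. Gapdh changed by -0.03 over the 6 lines (adjusted p = 0.765), and its 6 other probes gave -0.12 to -0.05, none past the threshold. Pgk1, phosphoglycerate kinase, changed by -0.03 (adjusted p = 0.937), Eno1 by -0.02 (0.85), Pkm by -0.17 (0.116) and Pgam1, phosphoglycerate mutase, by -0.18 (0.0645). Genes such as Gapdh have processed pseudogenes with near-identical sequence, and signal from these cannot be separated by the probes.

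Eno2, known as the neuronal enolase, stood at -2.21, -2.50 and -1.72 in the 2ac controls and at -2.48, -2.85 and -2.84 after OHT. For 2abc the levels were -1.35, -1.33 and -1.46 in controls and -0.77, -0.57 and 0.08 after OHT. It was lower after OHT in 3 of 3 lines of 2ac, where the groups overlapped, and higher in 3 of 3 lines of 2abc, where they did not. Its signal in 2ac was low, though well above background on every array. The change in 2ac ran from -0.73 to -0.29 over the alternatives. The rise in 2abc was 0.96 (SE 0.24), to 194% of control (adjusted p = 0.0462), and the change in 2ac was -0.58 (adjusted p = 0.181). The difference between genotypes was 1.53 (SE 0.34, unadjusted p = 0.00429 in the limma fit), with an adjusted p of 0.325. The summed neural markers given above were higher after OHT in both genotypes. The range of the summed fibroblast markers was lower after OHT in 2ac, with overlap, and higher in 2abc. The part of either marker sum in the Eno2 values was not tested. The call in 2abc was lost without cl4, cl5, cl280.4, cl324.9 or cl324.13, with adjusted p between 0.0518 and 0.204, and without cl324.13 the change was 0.67. Eno3, the muscle enolase, changed by -0.29 (adjusted p = 0.349), and cl6 stood apart at -1.55.

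At the branch between lactate and mitochondrial oxidation, Pdk1 rose. Its product, pyruvate dehydrogenase kinase 1, inhibits the entry of pyruvate into the TCA cycle and is known as a HIF target. Pdk1 was at 1.13, 1.28 and 0.91 in the 2ac controls and at 2.14, 2.33 and 1.50 after OHT. In 2abc it was at 1.10, 0.52 and 0.44 in controls and at 1.18, 2.03 and 1.74 after OHT. The groups did not overlap in either genotype, but in cl280.4 the rise was only 0.08. Pdk1 rose by 0.93 (SE 0.20) over the 6 lines, to 190% of control (adjusted p = 0.0198), while the changes of 0.89 in 2ac (adjusted p = 0.0982) and 0.96 in 2abc (0.0668) did not pass. The call over the 6 lines was lost without cl4, cl5, cl324.9 or cl324.13, with adjusted p between 0.0591 and 0.0722. Ldha, which makes lactate from pyruvate, changed by -0.11 (adjusted p = 0.417). Slc16a3 (MCT4), which exports lactate, changed by -0.13 (adjusted p = 0.734).

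Pfkfb3, the kinase that makes fructose 2,6-bisphosphate, the main activator of phosphofructokinase, rose in 2abc and over the 6 lines. It stood at 0.31, -0.04 and 0.18 in the 2ac controls and at 0.71, 0.37 and 1.17 after OHT. The 2abc controls stood at 0.13, -0.11 and 0.05, and the 2abc samples with OHT at 0.69, 0.82 and 0.86. Samples with OHT lay above those without in both genotypes. The rise was 0.77 (SE 0.15) in 2abc (adjusted p = 0.0231) and the change 0.60 in 2ac (adjusted p = 0.0525). Pfkfb3 rose by 0.68 (SE 0.10) over the 6 lines, to 161% of control (adjusted p = 0.00695), with adjusted p between 0.00148 and 0.0318 over its alternatives. The call within 2abc was lost without cl324.9 (adjusted p = 0.132) or cl324.13 (0.134). Pfkfb4, a related kinase, changed by 0.04 (adjusted p = 0.71).

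**Figure D2:**
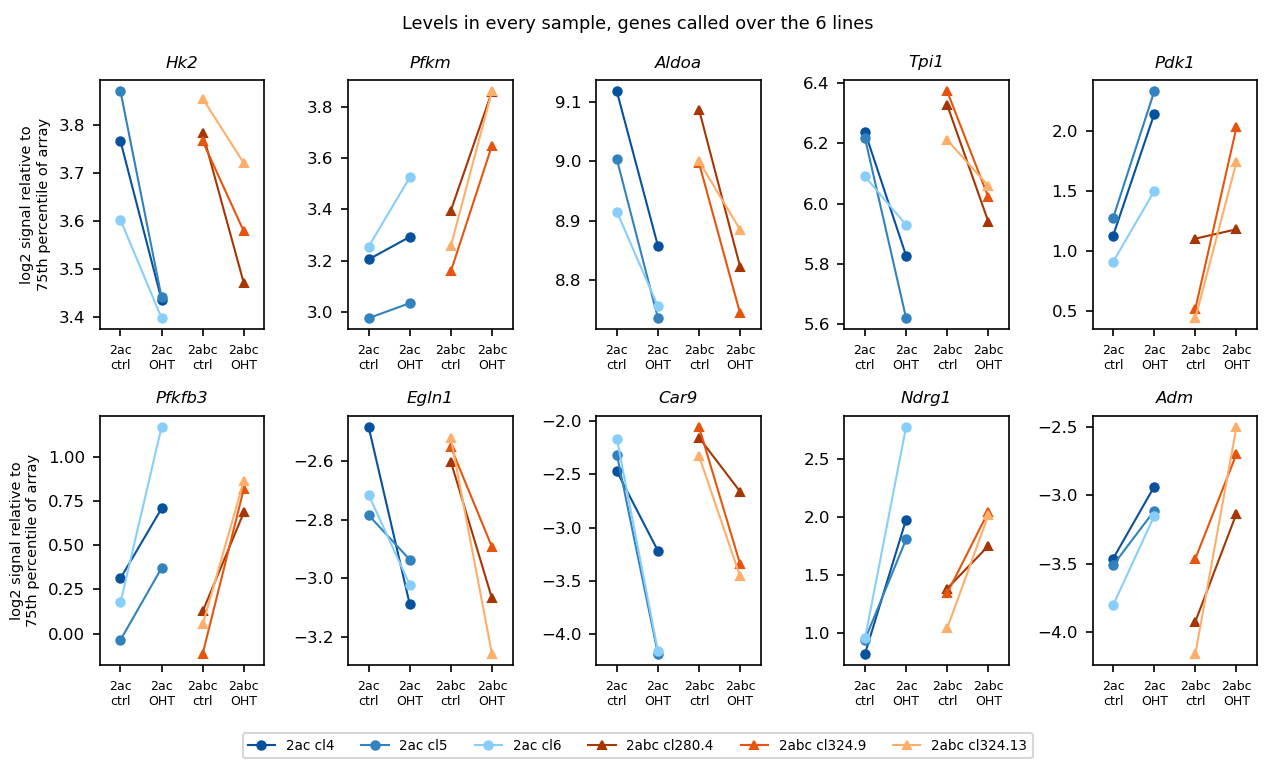
Level of the 10 genes called over the 6 lines in every sample (vertical axis, log2 signal relative to each array's 75th percentile; each panel has its own range), with a line joining control and OHT of the same ESC line. Circles are 2ac lines and triangles 2abc lines. All 6 joining lines slope the same way in each panel, and that of Pdk1 in cl280.4 rises by only 0.08.

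Of the oxygen sensors, Egln1 (PHD2), the main HIF prolyl hydroxylase, fell. Its level was -2.48, -2.78 and -2.72 in the 2ac controls and -3.09, -2.94 and -3.02 after OHT. For 2abc the levels were -2.60, -2.55 and -2.52 in controls and -3.07, -2.89 and -3.26 after OHT. The groups did not overlap in either genotype. Egln1 fell by 0.51 (SE 0.12) in 2abc (adjusted p = 0.0397) and by 0.43 (SE 0.09) over the 6 lines, to 74% of control (adjusted p = 0.0158). In 2ac its change was -0.35 (adjusted p = 0.12). The call in 2abc was lost without any 1 of the 6 lines, with adjusted p between 0.053 and 0.211, and the call over the 6 lines without cl324.13 (adjusted p = 0.0563). With normexp background correction the changes were smaller, and over all alternatives the mean change of Egln1 ran from -0.48 to -0.23. Egln3 (PHD3), a known HIF target, changed by 0.03 over the 6 lines (adjusted p = 0.868).

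Car9 fell the most of the 34 genes on the scale used here. It encodes carbonic anhydrase 9, a cell surface enzyme of pH control and a widely used hypoxia marker. Car9 was at -2.47, -2.32 and -2.17 in the 2ac controls and at -3.22, -4.18 and -4.16 after OHT. In 2abc its levels were -2.16, -2.06 and -2.33 in controls and -2.66, -3.34 and -3.46 after OHT. Every OHT sample lay below every control sample. Car9 fell by 1.53 (SE 0.28) in 2ac, to 34.5% of control (adjusted p = 0.0247), and by 1.25 (SE 0.20) over the 6 lines, to 42% (adjusted p = 0.00738). In 2abc its change was -0.97 (adjusted p = 0.0619). The probe was well above background on 2 of the 4 arrays of OHT-treated 2ac samples, and with normexp correction of the background the change over the 6 lines was -0.58. The call in 2ac was lost without cl5, cl6 or the 2abc line cl324.13, with adjusted p between 0.0503 and 0.136. Car9 lies on chromosome 4, as do Kdm4a and Kdm4c, and the median change of the genes of that chromosome was between -0.10 and -0.02 in every line.

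Ndrg1 and Adm rose. Ndrg1, a stress-responsive gene induced by hypoxia, was at 0.82, 0.95 and 0.96 in the 2ac controls and at 1.98, 1.81 and 2.77 after OHT. In 2abc it was at 1.38, 1.34 and 1.04 in controls and at 1.75, 2.04 and 2.01 after OHT. The groups did not overlap in either genotype. Ndrg1 rose by 1.28 (SE 0.20) in 2ac, to 242% of control (adjusted p = 0.0186), and by 0.98 (SE 0.14) over the 6 lines, to 197% (adjusted p = 0.00636). In 2abc its change was 0.68 (adjusted p = 0.0724). The call in 2ac was lost without cl4 (adjusted p = 0.0851) or cl5 (0.0666). Adm encodes adrenomedullin, a vasodilator peptide. It stood at -3.46, -3.51 and -3.80 in the 2ac controls and at -2.93, -3.11 and -3.15 after OHT. In 2abc its levels were -3.92, -3.46 and -4.16 in controls and -3.13, -2.70 and -2.50 after OHT. The groups did not overlap, and cl324.13 showed the largest rise. Adm rose by 1.07 (SE 0.19) in 2abc, to 210% of control (adjusted p = 0.0186), and by 0.80 (SE 0.13) over the 6 lines (adjusted p = 0.00904). In 2ac its change was 0.53 (adjusted p = 0.129). The call in 2abc was lost without cl324.9 (adjusted p = 0.0736) or cl324.13 (0.0595, change 0.78). The probe was dim, and over all alternatives the change over the 6 lines ran from 0.36, with normexp correction, to 0.88.

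Vegfa, the angiogenic growth factor, fell in 2ac and did not pass in 2abc, where its change was positive. It was at 1.54, 1.40 and 1.96 in the 2ac controls and at 0.83, 0.91 and 1.58 after OHT. The 2abc controls stood at 1.54, 1.67 and 1.67, and the 2abc samples with OHT at 1.85, 1.97 and 2.11. Within each line the direction was the same for the 3 lines of a genotype, although the 2ac groups overlapped because both samples of cl6 were high. The fall in 2ac was 0.53 on the log2 scale (change -0.53, SE 0.09, adjusted p = 0.0227), and the change in 2abc was 0.35 (SE 0.09, adjusted p = 0.0517). The difference between genotypes was 0.88 (SE 0.13, unadjusted p = 0.000544 in the limma fit), with an adjusted p of 0.303. The range of the summed fibroblast markers went the same 2 ways, with overlap in 2ac, and its part was not tested. A second Vegfa probe gave -0.34 (adjusted p = 0.383 over all probes) and 0.21 (0.576). The call in 2ac was lost without cl4, cl5 or the 2abc line cl324.9, with adjusted p between 0.0511 and 0.116. Ddit4, the inhibitor of mTORC1 signalling known as REDD1, was at 3.90, 5.07 and 4.45 in the 2ac controls and at 5.27, 4.60 and 5.02 after OHT. For 2abc the levels were 3.93, 4.43 and 5.49 in controls and 5.57, 5.67 and 5.71 after OHT. The controls of Ddit4 ranged widely, and its change of 0.76 (SE 0.28) did not pass (adjusted p = 0.0972), with 5 of 6 lines higher.

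**Figure D3:**
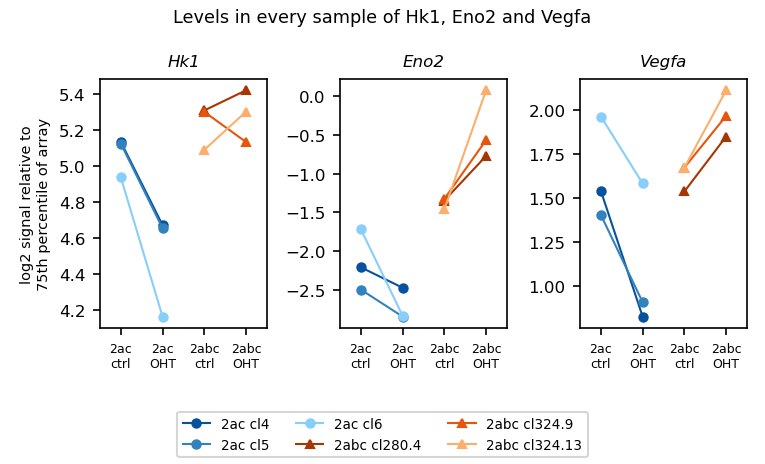
Levels of Hk1, Eno2 and Vegfa in every sample (vertical axis, log2 signal relative to each array's 75th percentile), with control and OHT of an ESC line joined. Eno2 and Vegfa go down in the 3 lines of 2ac (circles) and up in the 3 lines of 2abc (triangles). The differences between genotypes had adjusted p of 0.352 for Hk1, 0.325 for Eno2 and 0.303 for Vegfa.

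The difference between the genotypes in the OHT effect passed for none of the 34 genes and for 0% of all features in the limma fit. At an unadjusted p under 0.05 it counted 5 genes (14.7%), Hk1, Pfkm, Eno2, Vegfa and Ero1a, against 11.0% of all features. The untreated lines of both genotypes differed for none of the 34 genes and for 0.00873% of all features, which is 2 features. Without cl6 this comparison called 1172 features, and still none of the 34 genes. At an unadjusted p under 0.05 the untreated comparison counted 1 gene, Eno2, against 15.4% of all features. Untreated Eno2 was 0.76 (SE 0.25) higher in 2abc (adjusted p = 0.244). Slide and genotype are partly confounded there, and with the slide as a block the difference was 0.61, while within the slide that holds both genotypes it was 0.34.

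**Figure D4:**
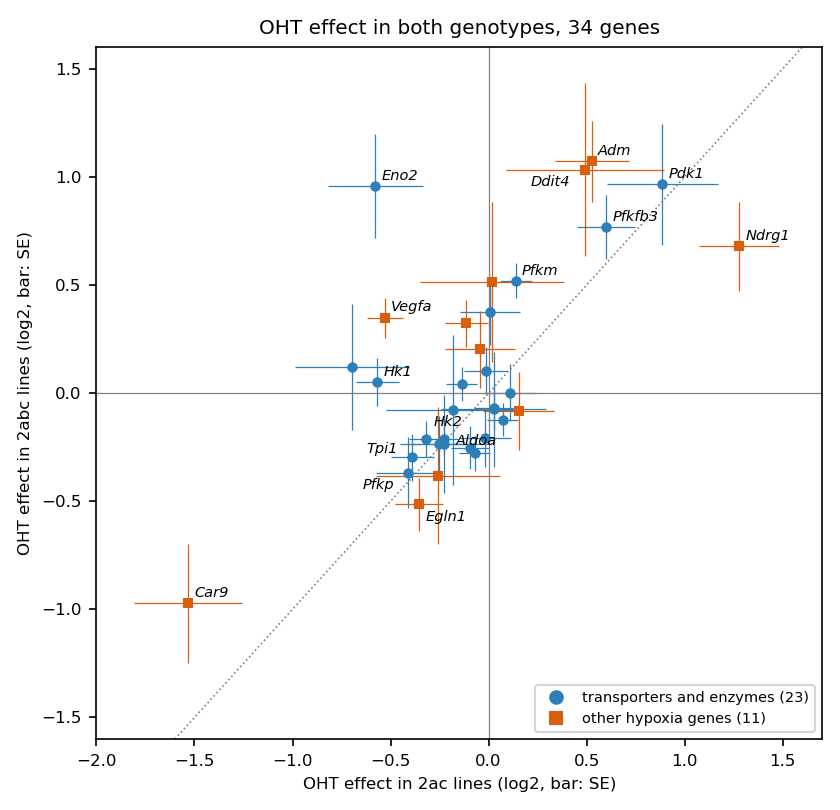
OHT effect in the 2ac lines (horizontal axis, log2) against that in the 2abc lines (vertical axis, log2) for the 34 genes, with bars of 1 SE and the dotted line of equal effects. Blue circles are the 23 enzymes and orange squares the 11 other hypoxia genes, and the 15 genes described with all samples are named. Car9 lies at -1.53 and -0.97, and Eno2 and Vegfa lie left of 0 and above it.

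The 19 genes not described with all samples changed by -0.70 to 0.15 in 2ac, by -0.38 to 0.51 in 2abc and by -0.32 to 0.27 over the 6 lines. The lowest adjusted p among them was 0.18 (Eno3) in 2ac, 0.0616 (Pgam1) in 2abc and 0.0645 (Pgam1) over the 6 lines. Bnip3, a mitophagy receptor and HIF target, changed by -0.32 (adjusted p = 0.337). Its other probes gave -0.32 and -0.75 (adjusted p = 0.337 and 0.0647 over all probes). Ero1a, an oxidase of the endoplasmic reticulum, changed by 0.10 (adjusted p = 0.369). The collagen prolyl hydroxylase genes P4ha1 and P4ha2 changed by 0.27 (adjusted p = 0.496) and 0.08 (0.681). Several of these genes varied between lines more than they changed on average. P4ha1 was 0.93 lower after OHT in cl4 and 1.05 higher in cl6, and in cl324.9 and cl324.13 it was 0.70 and 0.82 higher.

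A pattern by line was seen after the values were known, and it was not tested. Slc2a1, Slc2a3, Pfkl, Pfkp, Pgk1, Pgam1, Pkm, Ldha, Slc16a3 and Bnip3, 10 of the 34 genes or 29.4%, were lower after OHT in cl4, cl5 and cl280.4 and higher in cl6. Among all features 5.77% had these signs. The signs were read off the values of the 34 genes, which favours a higher share among them. The shares are therefore a description only. Bnip3 changed by -0.79 in cl4, -0.62 in cl5 and -0.95 in cl280.4, and by 0.63 in cl6. Slc16a3 changed by -0.55, -0.73 and -0.78 in the same 3 lines and by 0.75 in cl6. For Pgk1 the values were -0.30, -0.45 and -0.45 against 0.83 in cl6. Pgk1 is X-linked, and the median change of the genes of the X chromosome was 0.72 in cl6 and between -0.01 and 0.07 in the other lines. For Ldha they were -0.22, -0.13 and -0.45 against 0.29. In cl324.9 and cl324.13 these 4 genes changed by -0.12 to 0.32. Lines of both genotypes are among those with lower values.

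**Figure D5:**
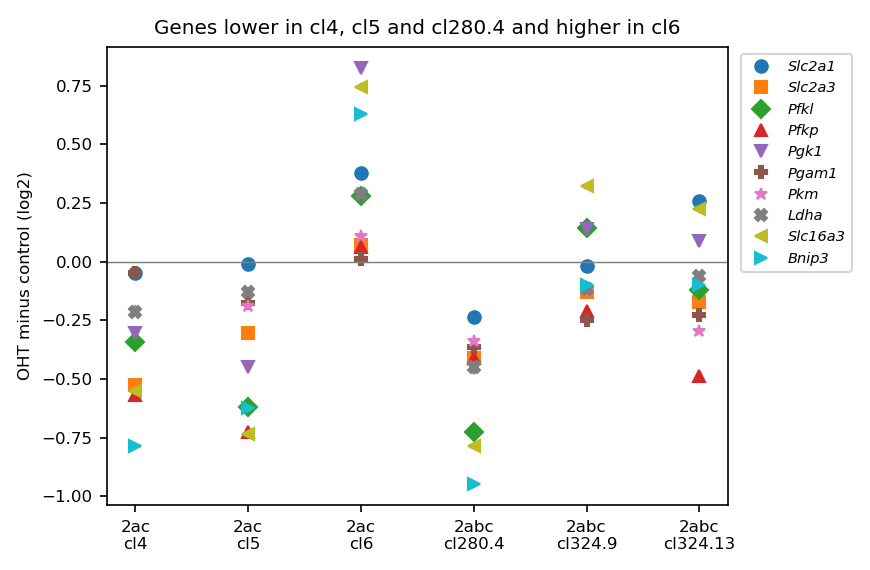
OHT minus control (vertical axis, log2) in each ESC line (horizontal axis) for the 10 genes that were lower in cl4, cl5 and cl280.4 and higher in cl6, a set chosen by these signs. Bnip3 spans -0.95 in cl280.4 to 0.63 in cl6, and most points of cl324.9 and cl324.13 lie between the 2 extremes.

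The machinery that sets HIF activity was examined through 15 regulators, of which 14 could be tested. Over the 6 lines 1 rose and 3 fell (28.6%, against 28.7% of all features), with a median of -0.03. Epas1, which encodes HIF2 alpha, rose by 0.53 (SE 0.08), to 145% of control (adjusted p = 0.00565). Vhl, which recognises hydroxylated HIF alpha, fell by 0.36 (SE 0.06, adjusted p = 0.00753), and so did Cul2, the scaffold of the same ubiquitin ligase (fell by 0.36, SE 0.06, adjusted p = 0.00936). Cited2, a competitor of HIF for its coactivators, fell by 0.69 (SE 0.18, adjusted p = 0.0369). Of 31 other hypoxia targets tested, 4 rose and 2 fell (19.4%), with a median of 0.02. Car12, a carbonic anhydrase related to Car9, rose by 1.80 (SE 0.20), to 348% of control (adjusted p = 0.00319), opposite in sign to Car9. Stc2 rose by 1.17 (SE 0.12, adjusted p = 0.00242) and Hilpda, a lipid droplet protein, by 0.44 (SE 0.06, adjusted p = 0.00485). Angptl4, a secreted inhibitor of lipoprotein lipase, fell by 0.83 (SE 0.12, adjusted p = 0.00596).

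Of 21 further genes of glucose and lactate metabolism that could be tested out of 28, 3 rose and 6 fell over the 6 lines (42.9%, against 28.7% of all features), with a median of 0.11. The 4 with the smallest p-values all fell. Slc2a8 (GLUT8) fell by 0.55 (SE 0.07, adjusted p = 0.00416), Ldhd, a lactate dehydrogenase for D-lactate, by 0.90 (SE 0.13, adjusted p = 0.00626), Tigar, a bisphosphatase that lowers fructose 2,6-bisphosphate, by 0.49 (SE 0.09, adjusted p = 0.0124), and Pgm1, a phosphoglucomutase, by 0.44 (SE 0.09, adjusted p = 0.0163). The Ldhd probe was dim, and well above background on 3 of 4 arrays of OHT-treated 2ac samples and on 2 of 3 in 2abc. Of 12 genes of pyruvate dehydrogenase and its regulators, 1 passed (8.33%). This was Pdp2, the phosphatase that opposes the PDK kinases, which fell by 0.95 (SE 0.11), to 51.8% of control (adjusted p = 0.00313), while Pdk1 rose. Of 16 TCA cycle genes, 2 rose and 3 fell (31.2%). Dlst fell by 0.46 (adjusted p = 0.00371) and Idh3a by 0.40 (0.00651), while Ogdh rose by 0.35 (0.00691) and Fh1 by 0.21 (0.0392). Of 8 pentose phosphate genes, 1 rose and 3 fell (50%), with H6pd up by 0.57 (adjusted p = 0.00788), and Tkt down by 0.38 (change -0.38, adjusted p = 0.015), Pgd by 0.31 (-0.31, 0.018) and Rpia by 0.24 (-0.24, 0.0313). These lists were chosen with earlier results of these data known, and their counts are a description.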

How the data were processed

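Total RNA of the 12 samples was hybridised to 13 Agilent 1-colour arrays (Cy3). Per the file headers, the authors deposited probe intensity values from Feature Extraction 11.0.1.1, and gProcessedSignal is already background-subtracted. The authors also deposited a table on a log2 scale that holds 30 of the 34 genes (r with log2 median signal of 0.999 to 1 by array). Its median was 10.43 to 10.51 by array. The name of this table holds the word loess, and its normalization was not stated further in the labels or headers used here. The submitters' processing notes name limma. The titles of the cl4 control and of 1 of its 2 OHT arrays end in B, which was read here as a second hybridisation. The 2 OHT arrays of cl4 (r = 0.994) were averaged and counted as 1 sample. Between them the median absolute difference was 0.113 on the log2 scale, and the largest for a gene of the 34 was 0.606.

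Here log2 of gProcessedSignal minus the 75th percentile of each array was tested with limma 3.58.1 in R 4.3.3, with a fixed block for the ESC line, all 12 samples in 1 fit with 4 residual degrees of freedom, and Benjamini-Hochberg adjustment over 22919 features. The untreated genotypes were compared in a fit of group means to all 12 samples, OHT samples included, with the line as a random block (consensus correlation 0.26). Of 55681 probes, 27656 matched 1 symbol through the RefSeq accessions of GRCm38.p6. The probe with the highest mean signal stood for a gene, and a feature was kept where all arrays of 1 group or more were well above background. Further probes were tested in a fit over 30670 probes. The 3 slides hold cl4 (slide 1), cl5 with the first OHT array of cl4 (slide 2), and cl6 with all 2abc lines (slide 3), so that a line's control and OHT samples share a slide except for that array. Control and OHT samples are paired because they come from the same ESC line. The correlation of their deviations from the group means was 0.03 to 0.50 in cl280.4, cl4, cl5 and cl6, and -0.02 and -0.01 in cl324.9 and cl324.13. Genes called in any comparison, or among the 8 with the largest mean change, are described with all samples, and from each further list at most the 4 with the smallest p-values are named. The genes and lists were chosen with earlier results of these data known. The array data hold no mean spot signal, so the normexp alternative (offset 50) took median signals. Other alternatives were the scaling, the filter, the probe choice, the block, the slide, the samples in the fit and leaving out each line. The code was tested on simulated data.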

Additional observations from a re-analysis of the deposited data

Results flagged for a closer look

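For 2 genes the OHT effect had opposite signs in all lines of the 2 genotypes. The 2abc effect minus the 2ac effect was 1.53 for Eno2 (adjusted p = 0.325 for the difference in the limma fit) and 0.88 for Vegfa (adjusted p = 0.303), so neither difference passed. This pattern of signs was present in 793 features (3.46%). For Adm, the change in cl324.13 was 1.66, apart from the other lines at 0.40 to 0.79. Chance alone flags about 1 group in 20, and 34 genes were checked.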

How the results depend on the processing

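No call changed sign under any alternative. Of 303 tests of a called gene under an alternative, 223 kept the call and 80 lost it. In 2ac, where 4 genes were called, the count was 0 with no filter on dim probes, 8 with the slide as a block and 1 with only the groups compared (Pdk1, none of the 4), and leaving out a line gave 0 to 5. In 2abc, where 5 were called, it was 3 with median scaling, 9 with normexp, 1 with no filter, 10 with the slide as a block and 0 with only the groups compared, and leaving out a line gave 0 to 7. Over the 6 lines, where 10 were called, it was 6 with median scaling and 5 to 13 leaving out a line. Without the replicate block, which ignores the pairing by line, the mean over the 6 lines had 11 calls, 2abc had 8 and 2ac had 4. There Vegfa lost its call in 2ac (adjusted p = 0.121), and Tpi1 in 2ac and Pgam1, Pdk1 and Car9 in 2abc gained one. The difference between genotypes and the untreated comparison called no gene of the set in any alternative.

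The number of all features called moved as well. In 2ac it was 2812, and 897 with no filter, 1603 with only the groups compared and 169 to 3432 leaving out a line. In 2abc it was 4035, and 1530, 930 and 211 to 4729. Over the 6 lines it was 6584, and 4329 with no filter and 3578 to 6706 leaving out a line. In the untreated comparison, median scaling moved the median of all features from -0.04 to 0.26. The untreated comparison called 2 features and 1172 without cl6, against 0 or 1 without another line. The cause of these shifts was not tested. The probes of Car9, Adm and Egln1 are dim, so the size of their changes is uncertain, and it was smaller with normexp. That setting adds an offset of 50 to every signal, which weighs most on dim ones. The part of the offset in the smaller changes was not tested.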
